A study of Arabidopsis thaliana with 8 samples.

Results

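In 80 Arabidopsis loci, the mix of transcript models (the alternative RNAs that the annotation gives for 1 gene) differed between the mutant lsm8-1 and the wild type Col-0 on plates with NaCl and differed little on control medium. They were chosen by a rule on the deposited reads per model in the 4 plate libraries. A locus had to have 2 or more models and 50 or more reads in each library, and its main model was the one with the most reads over the 4. The share of the main model in the reads of the locus, lsm8-1 minus Col-0, had to be 15 percentage points or more either way with NaCl and less than 10 points on control medium. Of 25944 loci with a read, 5144 had several models, 3416 passed the read rule and 80 met the whole rule, which is 2.34% of the 3416. These shares selected the loci, so they are given below as a description without a test.

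The study compared RNA from 2-week-old plants of Col-0 and of lsm8-1, a line with a mutation in LSM8 in the Col-0 background, all grown in long days and labelled as leaf tissue. For the salt experiment they were raised on 0.5X GM plates with 90 µmol m-2 s-1 of light and taken either from GM or 10 h after a transfer to plates with 150 mM NaCl. For the cold experiment they were raised in soil at 20 °C under the same light and taken from there, or following 24 h of 4 °C under 40 µmol m-2 s-1. There was 1 library for each genotype and condition, 8 in all, and the labels do not say how many plants went into a library, so no difference within a condition has a replicate check.

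LSM8 is the subunit that sets the nuclear LSM2-8 ring apart from its cytoplasmic relative, and the ring binds the end of U6, the small nuclear RNA that pairs with the 5′ splice site in the spliceosome. Plants that lack the ring are known for defects in intron removal. An intron that stays in, or a splice site moved by a few bases, gives a model with another untranslated region or another protein.

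The libraries held 33.4 to 34.0 M reads (M, 1e6 reads) in the salt and 44.2 to 45.9 M in the cold experiment. Reads of LSM8 (AT1G65700) were fewer in lsm8-1 in all 4 pairs: 51 against 269 of the wild type on GM, 29 against 208 with NaCl, 206 against 578 in soil at 20 °C and 821 against 1816 at 4 °C. The root markers of the plate libraries went against the leaf label. A list of 5 root markers summed to 7297 CPM (counts per 1e6 reads) in Col-0 and 4732 in lsm8-1 on GM, and to 2787 and 2142 with NaCl, against 34.4 to 116 in soil, and 3 leaf markers to 5058 to 9451 on plates against 28970 to 38257 in soil. BGLU23 made up most of the root sum, PHT1;1, LRX1 and BGLU21 had no read at 20 °C, and between the genotypes 4 of the 5 root markers were lower in lsm8-1 on GM and 2 of 5 with NaCl. RBCS1A made up most of the leaf sum in soil and on GM. RBCS1A and LHCB1.1 were lower in all plate libraries than in soil, but LHCB3 was not. In lsm8-1, LHCB3 had 2529 CPM on GM and 3313 with NaCl, against 2998 at 20 °C and 1462 at 4 °C. In Col-0 it had 1025 and 1492, against 2013 and 741. On plates only reads that tell models apart seem to have been counted. The part of such counting in the marker sums was not tested. The part of root tissue in the shares below was not tested. In such bulk tissue, fewer cells of a type and less RNA per cell cannot be told apart.

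With NaCl the main model had a lower share in lsm8-1 at 47 of the 80 loci and a higher share at 33, from -34.4 to 25.7 points. The median absolute difference was 18.0 points with NaCl and 3.79 points on GM, against 2.84 and 3.47 points over all 3416 loci. Among the 3416, 7.87% differed by 15 points or more with NaCl (170 lower and 99 higher), and 12.8% did so on GM. On GM the difference of the 80 had the same sign as with NaCl at 48 loci and the opposite sign at 32.

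**Figure D1:**
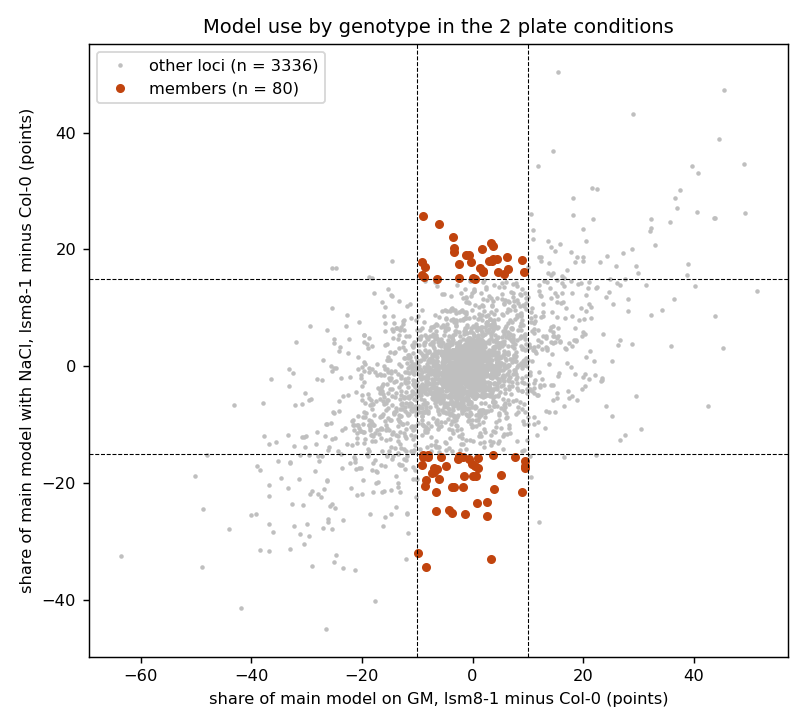
Each point is a locus, with the share of its main model (lsm8-1 minus Col-0, percentage points) on GM on the horizontal and with NaCl on the vertical axis. Dashed lines mark the limits of the rule, and the 80 chosen loci fill the upper and lower middle fields, among 3416 in all.

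The chosen loci had few reads. Their median number of reads was 117 in Col-0 and 92 in lsm8-1 with NaCl, against 246 and 211 over the 3416 loci. In 57 of the 80 the lowest library held 50 to under 100 reads, where 5.81% of 981 loci met the rule, and 1.82% of 991 loci did so with 100 to under 200 reads and 0.346% of 1444 with 200 or more. At such numbers the shares were imprecise. The 95% Newcombe interval of the NaCl difference was 23.2 points wide in the median, and it left out 0 at 78 loci, which the choice of loci at 15 points or more largely fixes. The interval on GM reached 15 points or more at 46 loci, so that at this depth a GM difference of that size lay within counting error there. The interval of the NaCl difference minus the GM difference left out 0 at 50 loci and held 0 at 30, again among loci chosen on these same values. All these intervals cover counting error only, with each read taken as independent, and none of the 80 has a second library. Many low counts of a model were even numbers, as in PARC6 (AT3G19180), where model 2 had 20, 22, 0 and 20 reads. If reads of the same fragment were counted singly, the intervals are too narrow and leave out 0 too often. This was not tested. Loci on either side of the limits lay close together. Just inside the NaCl limit lay AT1G07480 (15.02 points), AT4G34750 (15.02) and AK-LYS1 (15.10), and just outside it SDH2-1 (14.72), AT1G10657 (14.79) and AT2G47640 (14.81). On GM, AT1G64050 (9.52), ARPC3 (9.56) and AT2G06000 (-9.92) lay just inside, and AT5G19480 (10.04), AT1G61900 (-10.10) and ILA (-10.14) just outside.

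**Figure D2:**
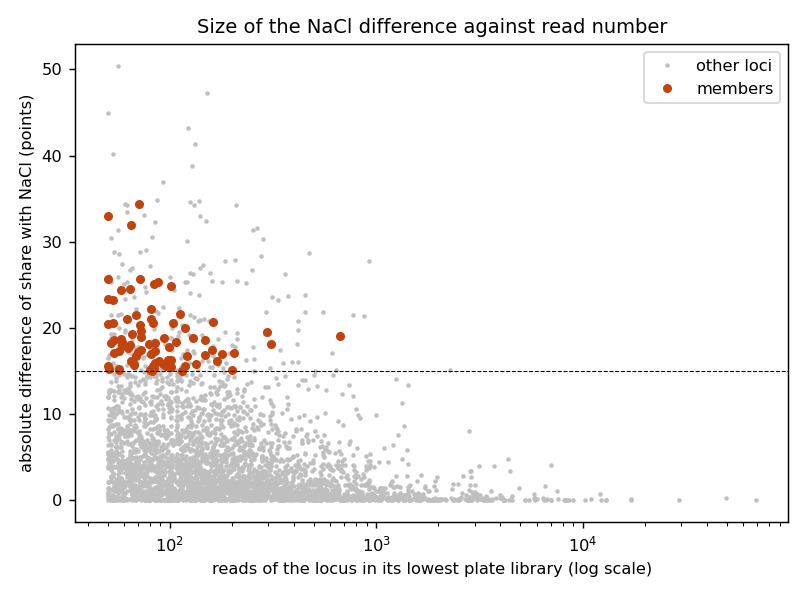
Absolute difference of the main model's share with NaCl (percentage points, dashed line at 15) against the reads of the locus in its lowest plate library (log scale). Of the 80 chosen loci 57 lie under 100 reads, and 1 locus, AT2G41640 at 668 reads, stands far to the right of the others.

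By RefSeq's models (TAIR10.1), the main and second model of the 80 loci differed by much the same kinds of event as over the 3416. A retained intron set them apart at 27 loci (33.8%, against 34.9% of the 3416), another acceptor site (the 3′ end of an intron) at 17 (21.2% against 21.5%) and another donor site (its 5′ end) at 11 (13.8% against 12.1%). A skipped exon did so at 3 loci, another first exon at 2, another last exon at 3, and several changes at 16. The remaining locus, AtkdsA1, had no such pair in RefSeq. Among all loci past 15 points with NaCl, whatever their value on GM, retained introns made up 52.0%. In 26 of the 27 loci with a retained intron 1 model could be named as its holder. The holder was higher in lsm8-1 at 20 of 26 loci on GM and 17 of 26 with NaCl, near the 73.7% and 67.0% of 1168 such pairs in the whole table. These kinds are RefSeq's. The deposited model lengths differ by the size of the event at only 13 of the 52 loci with a single event (534 of 2222 over the 3416). In the others, reads at the ends of the RNAs may also tell the models apart, so a shift there need not be one of the event named. The change lay in the coding region at 41 loci (51.2%, against 62.5% of the 3416) and in the 5′ untranslated region at 25 (31.2% against 21.3%). The pair of models encoded different proteins at 49 of 79 loci (62.0% against 73.1%).

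Of the 17 acceptor pairs, 9 had acceptors 6 or fewer bases apart, and 6 of these were 3 bases apart, against 332 and 197 of 714 such single-event acceptor pairs among the 3416 loci. The 6 were the kinesin gene ARK3, the cell cycle factor gene ATE2F2, the agenet domain gene DUF7, NAC082, the helicase gene AT3G02060 and the PHD finger gene AT4G23860. The event is that of the main and second model, and other models can take the shift. In AT4G23860 the second model, model 2, had 25.8% in Col-0 and 24.2% in lsm8-1 with NaCl, and model 3 had 36.4% and 20.2%. The deposited model lengths of these 6 differ by more or less than the 3 bases, so the reads that told their models apart may lie at the ends of the RNAs.

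In 13 of the 52 loci with a single event, the lengths in the deposited tables differ by exactly the size of the event in RefSeq, so the event itself can be read from the genome. The 6 of these that lie in coding sequence in both models are shown because they are the clearest view of what the shifted reads represent. Sequences are from the RefSeq genome TAIR10.1, on the strand of the gene and 5′ to 3′. Capitals mark the bases that the longer model keeps and the shorter one removes, with 12 flanking bases on each side in lower case. PARC6 lies at chr3:6636473-6636603 (plus strand), AT3G58220 at chr3:21565070-21565283 (minus), PDIL1-4 at chr5:24371336-24371451 (minus), AT1G72740 at chr1:27381135-27381176 (minus), AT2G32320 at chr2:13729195-13729254 (plus) and BZO2H1 at chr4:1154946-1154987 (plus).
PARC6: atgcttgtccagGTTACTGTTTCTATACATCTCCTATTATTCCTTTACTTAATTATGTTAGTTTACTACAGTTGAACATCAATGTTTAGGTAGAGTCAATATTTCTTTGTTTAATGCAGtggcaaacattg
AT3G58220: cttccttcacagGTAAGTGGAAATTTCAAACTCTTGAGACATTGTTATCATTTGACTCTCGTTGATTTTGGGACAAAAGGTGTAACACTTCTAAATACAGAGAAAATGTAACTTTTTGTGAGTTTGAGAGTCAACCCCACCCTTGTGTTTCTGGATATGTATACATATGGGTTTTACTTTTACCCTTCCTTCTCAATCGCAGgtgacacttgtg
PDIL1-4: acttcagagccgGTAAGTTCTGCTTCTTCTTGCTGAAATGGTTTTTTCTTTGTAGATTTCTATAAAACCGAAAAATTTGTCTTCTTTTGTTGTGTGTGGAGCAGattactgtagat
AT1G72740: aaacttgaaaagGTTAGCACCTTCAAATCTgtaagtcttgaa
AT2G32320: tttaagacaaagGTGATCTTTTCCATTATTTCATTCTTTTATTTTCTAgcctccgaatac
BZO2H1: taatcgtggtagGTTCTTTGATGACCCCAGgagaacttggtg

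The first 3 are whole introns of 107, 190 and 92 bases that begin with GT and end with AG, and none of these lengths is a multiple of 3. PARC6 (AT3G19180) encodes a plastid division protein of the inner envelope. Its intron-holding model 2 had 20 of 90 reads in Col-0 and 22 of 112 in lsm8-1 on GM, then 0 of 50 in Col-0 and 20 of 78 in lsm8-1 with NaCl. The spliced model 1 thus took 77.8%, 80.4%, 100% and 74.4% of the reads, and Col-0 with NaCl is the library that stands apart. There 0 of 50 reads still allows a share of up to 6.0%, or more if the reads are not independent. PDIL1-4 (AT5G60640), a protein disulphide isomerase of the secretory pathway, had 49.4% of its reads in Col-0 and 46.8% in lsm8-1 on the spliced model 1 on GM, then 56.8% and 40.9% with NaCl. In AT3G58220, a TRAF-like gene, the main model 1 holds the intron, with 63.1% and 64.9% on GM and 51.4% and 67.6% with NaCl. In these 3 the intron-holding model had the higher share in lsm8-1 with NaCl. The difference was 25.6 points in PARC6, 16.3 in AT3G58220 and 6.87 in PDIL1-4, where its model 3 took part of the shift. The set as a whole had no such direction. AT1G07480 and AT5G53900 also hold a length-matched intron, and there the intron-holding model was lower in lsm8-1. Over the 13 length-matched loci the longer model was higher in lsm8-1 with NaCl at 5 and lower at 8. Over the 52 with a single event it was higher at 27 and lower at 25.

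The other 3 are pieces of 18, 36 and 18 bases, each a multiple of 3. AT1G72740, a gene for a Homeodomain-like DNA-binding protein, has 2 donors 18 bases apart, GTTAGC for the shorter main model 2 and gtaagt for the longer model 1. Model 2 had 61.2% and 54.5% of the reads on GM and 67.9% and 46.3% with NaCl, so that the longer model led in lsm8-1 with NaCl alone. AT2G32320 encodes a tRNAHis guanylyltransferase, and RefSeq lets the intron of its longer model 2 begin with gc. Its shorter main model 1 had 69.0%, 65.3%, 58.1% and 33.0% of the reads (Col-0 and lsm8-1 on GM, then with NaCl), lower with NaCl in both genotypes. BZO2H1 (AT4G02640), the bZIP transcription factor also called bZIP10, has acceptors 18 bases apart. Its shorter main model 1 had 61.0%, 62.3%, 60.4% and 77.2% in the same order, with lsm8-1 under NaCl as the library that stands apart.

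The locus with the most reads was AT2G41640, a family 61 glycosyltransferase gene on chromosome 2. Its main model 2 had 716 of 722 reads in Col-0 and 2468 of 2504 in lsm8-1 on GM, then 471 of 668 and 1851 of 2065 with NaCl. The shares were 99.2%, 98.6%, 70.5% and 89.6%, a NaCl difference of 19.1 points (15.5 to 22.9). The other model, with another last exon that reaches into the last intron of model 2, went from 6 reads to 197 in Col-0 and from 36 to 214 in lsm8-1. With NaCl the main model was 4.26 times as abundant in lsm8-1 as in Col-0 (3.84 to 4.72, exact Clopper-Pearson 95% interval of the scaled CPM ratio), and the other model 1.18 times (0.965 to 1.43). The share of this locus therefore moved beside a large difference in the level of 1 model. The locus overlaps its neighbour AT2G41650 on the same strand, and reads of both cannot be told apart there.

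GGT1 (AT4G39640), a gamma-glutamyl transpeptidase that breaks down glutathione outside the cell, had the largest change of share with NaCl among the 80. Its main model 1 had 79 of 83 reads in Col-0 and 85 of 91 in lsm8-1 on GM, and 62 of 103 and 38 of 96 with NaCl. The share was 95.2% and 93.4% on GM, 60.2% in Col-0 with NaCl and 39.6% in lsm8-1 with NaCl. Both genotypes moved to model 2, which has another first exon, and lsm8-1 moved further.

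**Figure D3:**
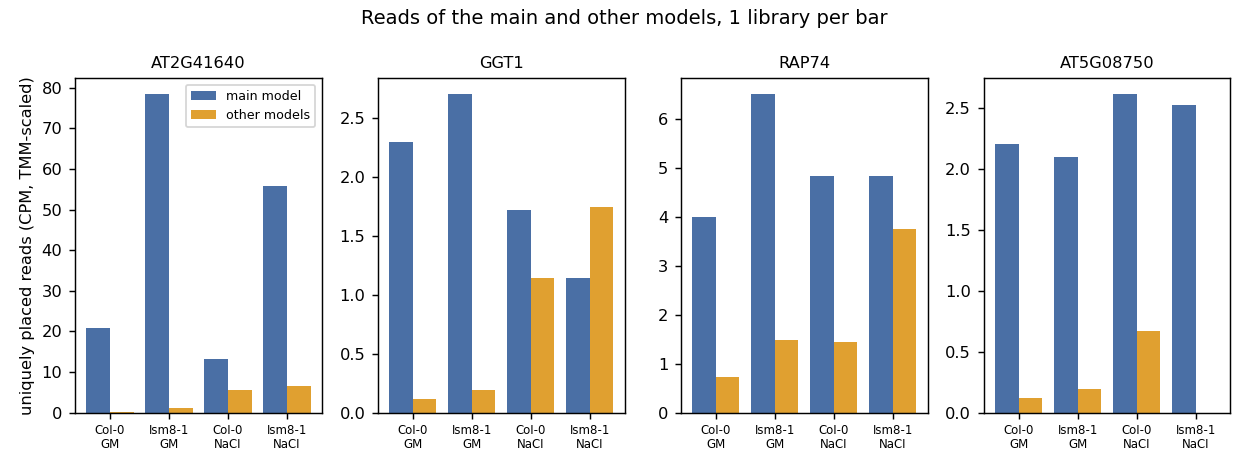
CPM after TMM scaling of the main model and of all other models of 4 loci, 1 bar per library and from 0 up. In AT2G41640 the main model is higher in lsm8-1 in both conditions and the other model is higher with NaCl in both genotypes, and in AT5G08750 the other models have no read in lsm8-1 with NaCl.

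Genes of transcription were 9 of the 80 by a match of words in the annotated product (11.2%, against 4.89% of the 3416). Among them were the E2F, GATA, BEL1-like, WRKY, NAC and bZIP factors ATE2F2, GATA26, BLH2, WRKY26, NAC082 and BZO2H1. The match missed AT1G07480, whose product begins with Transcription factor IIA, and the 3416 were counted by the same incomplete match. RAP74 (AT4G12610), which encodes the large subunit of the general transcription factor TFIIF, lies outside that word list, as do ARR1 and NF-YC9 below. Its main model 1 had 138 of 163, 205 of 252, 174 of 226 and 161 of 286 reads (Col-0 and lsm8-1 on GM, then Col-0 and lsm8-1 with NaCl, the order of all series of 4 values that follow), or 84.7%, 81.3%, 77.0% and 56.3%. The main model was as abundant in both genotypes with NaCl (ratio 1.00, 0.804 to 1.25), and the other model was 2.60 times as abundant in lsm8-1 (1.87 to 3.67). ARR1 (AT3G16857), a response regulator that turns on cytokinin-responsive genes, had 74.4%, 67.5%, 86.9% and 69.5% of its reads on main model 2, and Col-0 with NaCl is the high library. AT5G08750, a RING/FYVE/PHD zinc finger gene, was counted in this class and in that of ubiquitin and proteasome (1 of 80, 1.25%, against 3.54% of the 3416). It had 95%, 91.7%, 79.7% and 100% on main model 1. Its other models had 24 of 118 reads in Col-0 with NaCl and 0 of 84 in lsm8-1. By the limit of 3 reads the latter allows a share of up to 3.57%, if each read is independent. BLH2 (AT4G36870), a homeodomain factor of leaf shape, had 71.6%, 67.9%, 67.1% and 46.4% on main model 2. NF-YC9, a subunit of the CCAAT-binding factor NF-Y, had 55.8%, 59.5%, 45.8% and 66.3%, with 20.5 points between the genotypes under NaCl (9.73 to 30.8).

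Genes of RNA binding and splicing were 5 of the 80 (6.25%, against 3.45%) by the same kind of match. It counted the helicase gene AT3G02060 but missed AT3G24870, whose product begins with Helicase. AT1G31870, annotated as a splicing factor of the RES complex, which in yeast holds weak introns in the spliceosome, had 83.5%, 83.6%, 87.7% and 69.0% of its reads on main model 1. AT2G38610, a KH-domain RNA-binding gene, had 96.3%, 96.7%, 98.1% and 81.1% on main model 2. In both, lsm8-1 with NaCl is low and the other 3 libraries lie close together. The helicase gene AT3G02060 had 62.7%, 67.3%, 53.2% and 69.4%, and Col-0 with NaCl is its low library. AT5G47620 (RRM domain, 64.7%, 55.9%, 47.7% and 63.0%) and AT5G56530 (annotated as a tRNA-splicing ligase, 73.6%, 76.6%, 56.2% and 74.2%) were the other members, and the NaCl interval of AT5G47620 held 0 (-1.62 to 30.6). AFC1 (AT3G53570), a kinase of the LAMMER family that phosphorylates SR splicing factors, falls among the 4 kinases by its product. Its main model 1 had 63.6%, 73.0%, 52.0% and 68.2%, and the genotypes differed by 9.40 points on GM, close to the limit, so that its NaCl difference minus its GM difference held 0 (-11.4 to 25).

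A list of 29 splicing regulators, mainly SR proteins and their partners, had 20 loci that passed the read rule and no member among the 80. SR30 (AT1G09140) was past 15 points in both conditions (-15.8 on GM and -17.1 with NaCl), and SR45 (AT1G16610) came near the rule with -3.67 on GM and -14.5 with NaCl. The median absolute difference of the 20 was 2.27 points with NaCl and 4.28 on GM, beside 2.84 and 3.47 over all 3416. Of 24 genes of abscisic acid and salt responses 8 passed the read rule and none was a member, and of 13 clock genes 1 passed and was not. The rule chose 2.34% of the 3416, so lists this short could hold no member at that share, and nothing is read from it.

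GLTP1 and AT3G07760 were among the 6 loci with the most reads. GLTP1 (AT2G33470), a glycolipid transfer protein, had 265 of 466, 155 of 311, 344 of 521 and 261 of 545 reads on main model 2, or 56.9%, 49.8%, 66.0% and 47.9%. AT3G07760, which encodes a protein with a sterile alpha motif, had 208 of 365, 144 of 296, 267 of 422 and 134 of 306, or 57.0%, 48.6%, 63.3% and 43.8%. Both went the same way on GM (-7.03 and -8.34 points) and their genotypes stood further apart with NaCl (-18.1 and -19.5 points), with Col-0 up and lsm8-1 slightly down. RWA2 (AT3G06550), which O-acetylates cell wall polysaccharides, had 60.0%, 65.7%, 44.5% and 60.3% on main model 2. AtkdsA1 (AT1G79500), which makes the precursor of a sugar of the pectin rhamnogalacturonan II, had 45.0%, 51.2%, 32.4% and 51.1% on main model 5. In both it is Col-0 that is lower with NaCl. CLE17 (AT1G70895), a signalling peptide gene, had 82.9%, 91.8%, 78.2% and 96.5% on main model 1, with 22 of 101 reads on the other model in Col-0 with NaCl and 3 of 85 in lsm8-1.

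MSL2 (AT5G10490), a mechanosensitive channel of the plastid envelope, had 83.8%, 82.3%, 93.5% and 74.6% on main model 1, with Col-0 up and lsm8-1 down with NaCl. GRXS13 (AT1G03850), a glutaredoxin, had 93.8%, 94.4%, 94.3% and 75.5% on main model 2, so lsm8-1 with NaCl alone stands apart, with 23 of 94 reads on the model with another last exon. AK-LYS1 (AT5G14060, CARAB-AK-LYS in the annotation), a lysine-inhibited aspartate kinase that opens the synthesis of several amino acids, had 57.8%, 57.8%, 54.0% and 69.1% on main model 1. Here too lsm8-1 with NaCl stands apart, and the models differ by 6 bases at an acceptor in the 5′ untranslated region.

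**Figure D4:**
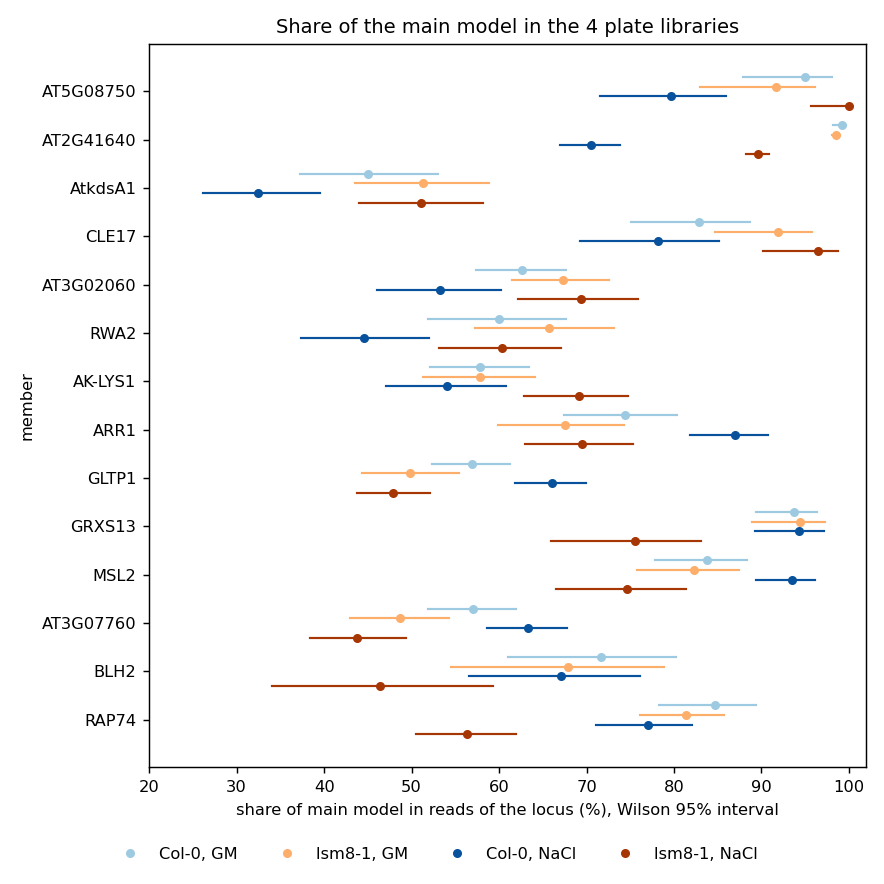
Share of the main model in the reads of the locus (percent, bars are Wilson 95% intervals of counting error) in the 4 plate libraries for the 14 loci described by the naming rule. With NaCl the shares of the genotypes lie 15 points or more apart in all 14, as the choice of loci requires, and the library that leaves the others is lsm8-1 in some (RAP74, GRXS13) and Col-0 in others (AT2G41640, AtkdsA1).

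The genotype that moved with NaCl differed among the 80. A share that differed by 10 points or more between GM and NaCl was counted as moved. At 27 loci lsm8-1 alone moved, with the main model lower in lsm8-1 than in Col-0 at 21 of them under NaCl. At 25 loci Col-0 alone moved, and the main model was then higher in lsm8-1 at 15. At 18 loci neither genotype reached 10 points, and at 3 (GGT1, AT2G32320 and the transporter gene UMAMIT46) both moved the same way, to a lower share of the main model. At the remaining 7 both moved and in opposite directions. Over the 3416 loci 10.5% moved in lsm8-1 alone and 7.35% in Col-0 alone. In the 47 loci with a lower main model the median move was 6.05 points up in Col-0 and -12.0 points in lsm8-1. In the 33 with a higher one it was -11.6 points in Col-0 and 5.78 points up in lsm8-1. The rule, with its larger limit under NaCl than on GM, sets the order of these medians, so nothing is read from it.

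**Figure D5:**
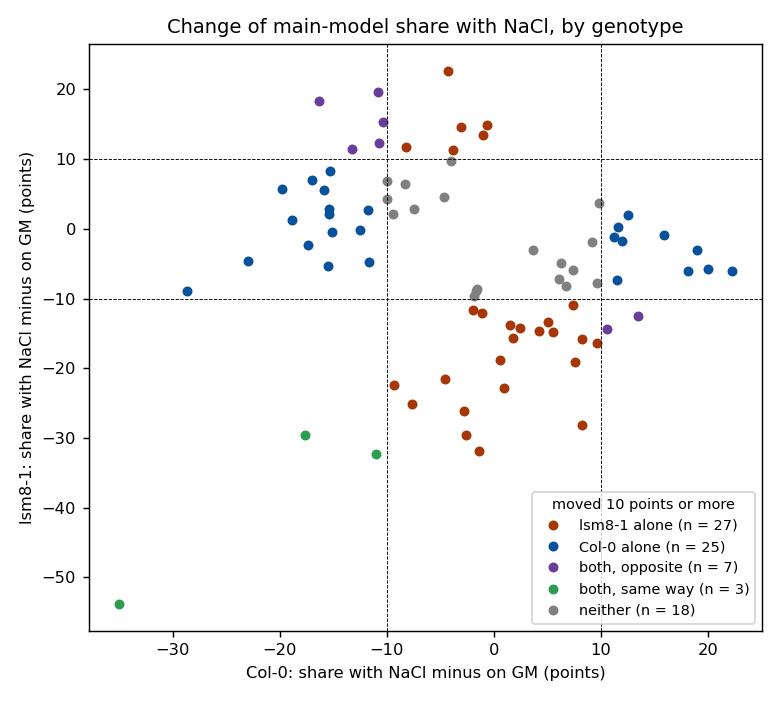
Change of the main model's share from GM to NaCl (percentage points) in Col-0 (horizontal) and lsm8-1 (vertical) for the 80 loci, coloured by which genotype moved 10 points or more (dashed lines). 27 loci moved in lsm8-1 alone and 25 in Col-0 alone, and GGT1 lies at the lower left, where both moved down.

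The level of the whole locus, as summed reads of its models, was within 2-fold between the genotypes at nearly all of the 80. With NaCl 1 of the 80 was 2-fold or more higher in lsm8-1 (background 0.790% of 3416) and 1 was 2-fold or more lower (1.29%), and on GM the counts were 2 (1.41%) and 0 (1.32%). With NaCl the median log2 ratio was -0.16 over the 80 and -0.08 over the 3416, with 27 higher and 53 lower, and on GM it was 0.02 with 44 higher and 36 lower. AT2G41640 was the highest in both conditions, at 3.80 times Col-0 on GM and 3.35 times with NaCl. UMAMIT46 stood at 2.12 times on GM. Only reads that tell models apart seem to be in these tables: the median ratio of CPM on GM to CPM at 20 °C in Col-0 was 0.164 over the members measured and 1.96 over loci with 1 model. A shift in model use can thus also change the summed count.

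The rule did not use the cold experiment, whose tables give 1 count per gene, so it tests the level of these loci and not their model use. In an additive edgeR quasi-likelihood fit of genotype and temperature over its 4 libraries, 79 of the 80 were tested. At a Benjamini-Hochberg adjusted p under 0.05, 1 was higher in lsm8-1 (1.27%, where 4.00% of 17589 genes were) and 3 were lower (3.80%, where 4.55% were). In the same edgeR fit 11 of the 79 had an unadjusted p under 0.05 for genotype, as did 4043 of the 17589 genes, which is a larger share. With library totals in place of TMM the genes called over the whole table shifted from 703 higher and 801 lower to 815 and 299, and the median of all genes moved to 0.11 (log2). The median log2 effect was -0.02 over the members and 0.01 over all genes tested.

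AT2G41640 was the higher one. At 20 °C the wild type had 3.96 CPM and the mutant 12.5 CPM, and in the cold they had 4.42 and 18.1 CPM, an effect of 1.85 (log2, SE 0.18, edgeR with Benjamini-Hochberg, adjusted p = 6.56e-07), and it passed the threshold in every alternative (2.95e-22 to 0.00134). This locus was therefore higher in lsm8-1 in soil as well as on plates, in 4 of 4 pairs of libraries. For RWA2 the wild type had 125 CPM and the mutant 103 CPM at 20 °C, then 106 and 59.5 in the cold, an effect of -0.55 (SE 0.15, adjusted p = 0.0281 by the same edgeR test). BLH2 had -0.51 (SE 0.15, adjusted p = 0.0335, edgeR) and AK-LYS1 -0.46 (SE 0.14, adjusted p = 0.0485, edgeR). The calls of these 3 were lost with library totals, with DESeq2 and in a fit over all 8 libraries, where their adjusted p ran from 0.0656 to 0.484 against 0.00587 to 0.0362 under the other alternatives.

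For cold itself, 17 of the 79 rose at 4 °C (21.5%, where 28.8% of all genes did) and 25 fell (31.6%, where 27.7% did) by the same edgeR test. The largest rises were AT3G06530, an ARM repeat gene (2.02, SE 0.14, adjusted p = 2.68e-10, edgeR), and AT5G47455, an uncharacterized gene (1.89, SE 0.17, adjusted p = 1.02e-08, edgeR). The largest falls were UMAMIT46, an amino acid transporter-like gene (-2.95, SE 0.22, adjusted p = 6.42e-10, edgeR), and TRM3, a LONGIFOLIA relative (-2.76, SE 0.15, adjusted p = 4.94e-12, edgeR). Genes of both share directions under NaCl were among them: AT3G06530 and UMAMIT46 had a lower, AT5G47455 and TRM3 a higher main model in lsm8-1.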

How the data were processed

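RNA-seq tables of 8 libraries were used, 1 for each genotype and condition. Per the file headers, each deposited table gives the count of uniquely placed reads per feature, RPKM, feature length and coverage. The authors listed features per gene in the cold and per transcript model in the salt experiment. Per the submitters' processing notes the build was TAIR10, and no source used here names the aligner or the counting tool. Only the deposited counts and lengths were used. The deposited RPKM and coverage values were left out.

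A feature not listed was taken as 0. Shares are reads of a model over reads of its locus, with Wilson 95% intervals, and differences of shares have Newcombe 95% intervals. Shares count the reads that tell models apart and are not shares of molecules. CPM were scaled by TMM within each experiment, and ratios of such CPM carry exact Clopper-Pearson intervals. All these intervals take each read as independent. Genes at 1 CPM or more in 2 of the 4 cold libraries were fitted with edgeR 4.0.16 (quasi-likelihood, temperature plus genotype, 1 residual degree of freedom, Benjamini-Hochberg threshold 0.05) in R 4.3.3. Each genotype and temperature had 1 library. The p-values of this fit therefore set an effect against the departure from additive genotype and temperature effects, with information shared over genes. They measure no spread between replicates. SE is the log2 effect over the root of its F statistic. DESeq2 1.42.0 was an alternative. The scripts were tested on simulated data.

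Models were matched by name to RefSeq TAIR10.1, where 202 of 203 models of the 80 loci were found and 62 had the same length. The loci, lists and tests were chosen with earlier results of these data known. Loci were named for a NaCl interval narrower than 20 points and a large difference (10 loci), for the most reads (6) or for a genotype call in the cold experiment (4), and others as examples chosen after their values were seen. No gene of the 3 lists was among the 80. Of the 80, 20 overlap another annotated gene, 14 of them one on the opposite strand. Whether libraries kept the strand is not given in the labels. One result is not reported here.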

Additional observations from a re-analysis of the deposited data

Results flagged for a closer look

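In 7 of the 80 loci the share of the main model moved by 10 points or more with NaCl in both genotypes, and in opposite directions. The change in lsm8-1 minus the change in Col-0 was -24.9 points in ARK3 (AT1G12430), an armadillo repeat kinesin, and -25.9 points in RNEE/G (AT2G04270), a ribonuclease E/G-like protein. It was 24.8 points in QUL1 (AT1G13860), a QUASIMODO2 relative, 25.7 points in the LETM1-like gene AT3G11560, 30.4 points in DUF7 (AT3G62300), an agenet domain protein, 23.0 points in ARF9 (AT4G23980), an auxin response factor, and 34.6 points in the WNK-like gene AT5G53900. The rule that chose the 80 favours such opposite moves, each rests on 1 library per group, and the difference between the genotypes was not tested. RNEE/G, AT3G11560, DUF7 and AT5G53900 also overlap other annotated genes. Over the 3416 loci, 45 (1.32%) moved this way.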

How the results depend on the processing

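The number of loci that met the rule followed its limits. It was 80 as given, 23 with a minimum of 100 reads, 149 with 20 reads (all 80 among them), 24 with a limit of 20 points under NaCl and 45 with a limit of 5 points on GM. Shares per model length gave 81 loci (76 shared), and naming the main model from Col-0 on GM alone gave 80 (79 shared). In the cold experiment the genes higher in lsm8-1 went from 703 to 283 with DESeq2 and 153 in the fit over 8 libraries. The genes lower went from 801 to 299 with library totals, 397 with DESeq2 and 68 over 8 libraries. Of the 80 loci, 3 lower became 0 under each of library totals, DESeq2 and the fit over 8 libraries, and 17 that rose with cold became 10 over 8 libraries. At an unadjusted p under 0.05, 11 of the 79 tested differed by genotype in edgeR, and 4043 of all 17589 genes did, a larger share. The cause of these changes was not tested. The NaCl differences of the 14 named loci kept their sign and moved by less than their interval under both alternatives. No paired analysis was possible because the labels give no replicate numbers and each group has 1 library. Depth is 1 limit: 57 of the 80 had under 100 reads in a library, and only 5 had 200 or more in each.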
